A study of Mus musculus with 59 samples.

Results

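The genes described here encode the nuclear subunits of the mitochondrial respiratory chain and ATP synthase, measured in mouse brain on Affymetrix Mouse 430 2.0 arrays. They were taken by gene symbol, as every gene whose symbol begins with Nduf, Uqcr, Cox4 to Cox8 or Atp5, or is Sdha, Sdhb, Sdhc or Sdhd, on a probe set with a single symbol. Each gene was represented by its probe set of highest mean signal. The rule gave 90 of the 18194 genes named on the array. These were 36 genes of complex I, 8 assembly factors of complex I with the symbol Ndufaf, 4 genes of complex II, 8 of complex III, 17 of complex IV and 17 of complex V. The Ndufaf proteins are not parts of the finished enzyme, so they are counted apart. Ndufa4 and its relative Ndufa4l2 stand under complex I by symbol, although the Ndufa4 protein is now assigned to complex IV.

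The study gave C57BL/6 dams an oral dose of 300 mg/kg valproic acid (VPA), 300 mg/kg valpromide (VPM) or 0.5% methylcellulose (MC, the vehicle), daily at E12.5, E13.5 and E14.5. By its title it concerned adult neurogenesis and cognition after prenatal exposure to the drug. VPA is a branched carboxylic acid used against epilepsy that also inhibits histone deacetylases, and VPM is its primary amide, in which a carboxamide takes the place of the carboxyl group. The 59 arrays formed 19 groups of 3 arrays, or 4 at P84. E14.5 telencephalon came from VPA, VPM and MC litters, 3 h after the final administration. Hippocampus and the sample labelled forebrain were taken at E18.5 from VPA, VPM and MC litters. Hippocampus and cortex came from adult male offspring aged 12 to 13 weeks in 4 groups each, namely VPA and MC with a running wheel in the cage after weaning (VPA+RW, MC+RW) and VPA and MC without one. A further set held hippocampus of VPA and MC males at P84. All mice were of one strain, and every group including MC had been dosed by mouth before birth. The arrays of a group are labelled as biological replicates with no litter or dam named, so a p-value measures the spread between these samples.

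The respiratory chain passes electrons from NADH through complex I, or from succinate through complex II, to ubiquinone, then through complex III and cytochrome c to oxygen at complex IV. Complexes I, III and IV pump protons, and complex V uses the gradient to make ATP, which neurons consume heavily for ion pumping and synaptic release. Most subunits are encoded in the nucleus, while a core set in complexes I, III, IV and V is encoded in mitochondrial DNA and was not analysed here. Several complex IV subunits exist as isoforms with tissue-restricted expression.

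Signals are given after scaling each array to a 2% trimmed mean of 500, with values under 32 set to 32, and differences are on the log2 scale with the standard error (SE) from limma. A gene was called when its Benjamini-Hochberg adjusted p over all tested genes was under 0.05. The trimmed mean of the deposited values ran from 198 to 419. From 29.6% to 38.0% of probe sets lay at the floor in the 27 embryonic arrays, and 18.2% to 23.6% in the 32 adult arrays. Replicates of a group correlated at 0.972 to 0.994 over probe sets, and no 2 arrays were identical. The members are mostly bright genes, since 71 of 90 had a mean signal of at least 2000. Hippocampal markers (Prox1, Zbtb20, Wfs1 and Lct) summed to 7943 to 8751 in adult hippocampus, against 4157 to 5033 in adult cortex, and to 5431 to 7150 in E18.5 hippocampus, against 2492 to 2980 in E18.5 forebrain. A female pattern of sex-linked genes was seen in 12 of the 27 embryonic arrays, while the labels of the embryonic samples give no sex.

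Shortly after the last dose, VPA moved a few members strongly, while most did not pass the test. The largest falls were in complex I and its assembly factors, namely Ndufb1, an accessory subunit of the membrane arm, Ndufaf8 and Ndufaf1, both needed to build complex I, and Ndufs8, an iron-sulfur subunit. The largest rises among the members that passed the signal filter were Cox6b2, known as a testis isoform of a complex IV subunit and near the filter, Ndufv3, an accessory subunit of the NADH-binding part, and Ndufaf2, a chaperone of late assembly. In limma, 12 members rose and 16 fell of the 83 that passed the signal filter, which is 28 calls in a comparison that called 53.8% of all 11068 tested genes. The median absolute difference was 0.12 over the members, against 0.28 over all tested genes and 0.20 over the 2345 tested genes with a mean signal of at least 2000. With quantile normalization the split was 17 higher and 14 lower. Of the 83 members, 31 had groups that did not overlap, against 60.2% of all genes. The 7 members that did not pass the filter were Ndufb4, Cox4i2, Cox6a2, Cox7a1, Cox7b2, Cox7c and Cox8b.

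Promoter sequence is shown for the 3 members with the largest falls and the 3 with the largest rises, so that what lies before the start of genes that moved together can be set side by side. Each line is the 250 bases before the annotated start, from RefSeq on GRCm38.p6, 5′ to 3′ on the gene's own strand, with capitals marking a match to GGGCGG on either strand, the GC box bound by SP and KLF factors.
Ndufb1, chr12:101975739-101975988, minus strand: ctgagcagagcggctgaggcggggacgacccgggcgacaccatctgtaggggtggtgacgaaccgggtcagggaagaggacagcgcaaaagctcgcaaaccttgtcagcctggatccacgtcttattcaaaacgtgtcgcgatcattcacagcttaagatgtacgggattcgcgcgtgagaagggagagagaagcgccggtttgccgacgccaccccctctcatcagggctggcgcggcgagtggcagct
Ndufaf8, chr11:120098684-120098933, plus strand: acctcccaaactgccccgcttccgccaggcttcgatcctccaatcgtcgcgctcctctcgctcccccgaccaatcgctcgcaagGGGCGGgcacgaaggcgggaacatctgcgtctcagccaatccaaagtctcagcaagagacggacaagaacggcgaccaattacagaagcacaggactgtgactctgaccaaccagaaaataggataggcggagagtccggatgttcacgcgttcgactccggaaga
Ndufaf1, chr2:119662835-119663084, minus strand: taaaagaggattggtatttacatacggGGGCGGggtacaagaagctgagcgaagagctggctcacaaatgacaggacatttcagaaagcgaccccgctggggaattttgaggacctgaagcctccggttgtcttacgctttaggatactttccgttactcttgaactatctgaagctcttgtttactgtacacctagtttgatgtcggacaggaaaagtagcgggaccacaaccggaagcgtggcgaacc
Cox6b2, chr7:4753095-4753344, minus strand: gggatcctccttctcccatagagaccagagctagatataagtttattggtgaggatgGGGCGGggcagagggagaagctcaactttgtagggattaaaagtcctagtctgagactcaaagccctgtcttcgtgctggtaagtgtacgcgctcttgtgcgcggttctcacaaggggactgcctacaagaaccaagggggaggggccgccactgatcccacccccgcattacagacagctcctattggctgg
Ndufv3, chr17:31519865-31520114, plus strand: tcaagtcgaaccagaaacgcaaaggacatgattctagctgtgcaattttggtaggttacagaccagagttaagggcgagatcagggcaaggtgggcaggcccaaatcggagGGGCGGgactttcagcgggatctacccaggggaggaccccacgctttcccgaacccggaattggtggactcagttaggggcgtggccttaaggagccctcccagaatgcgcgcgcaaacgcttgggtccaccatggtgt
Ndufaf2, chr13:108158626-108158875, minus strand: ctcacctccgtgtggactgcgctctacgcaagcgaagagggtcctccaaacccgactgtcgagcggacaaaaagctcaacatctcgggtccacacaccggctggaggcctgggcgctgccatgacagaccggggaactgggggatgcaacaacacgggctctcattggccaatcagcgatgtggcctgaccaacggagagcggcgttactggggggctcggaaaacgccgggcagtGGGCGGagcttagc
A GC box stood in 10 of the 12 promoters of members that rose, in 4 of the 13 of members that fell and in 15 of the 44 of members that were not called. It was in 31 of the 74 member promoters, or 41.9%, against 32.9% of all 27025 promoters of the table. The share among all genes that rose was not counted, so a link with the response was not tested. The table held a promoter for 74 of the 90 members. The pattern of the factor NRF1, GCGCA and GCGC with any base between them, searched on both strands, was in 4 of the 12 that rose, in 2 of the 13 that fell and in 4 of the 44 not called, against 3.86% of all promoters. It was in 11 of the 74 member promoters, or 14.9%. The ETS pattern CCGGAAGT was in 3 of 74 and the CRE pattern TGACGTCA in 3 of 74, against 2.93% and 1.62% of all promoters. The YY1 pattern, AAGAT directly followed by GGCGGC, was in none of the 74, against 0.218% of all promoters. Of the 6 promoters printed, 5 held a GC box and that of Ndufb1 held none of the patterns searched. These are descriptions of letters in a window, and binding was not measured.

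Within complex I, 4 members rose and 9 fell of 35 tested, with a median of -0.08. Ndufb1 had a signal of 123, 146 and 113 in the 3 VPA arrays, 254, 274 and 276 in the VPM arrays and 260.1, 325 and 271 in the MC arrays. Its difference from MC was -1.17 (SE 0.138, adjusted p = 2.72e-05) in limma. All VPA arrays lay below all VPM and MC arrays, while VPM and MC overlapped. Ndufs8, which carries iron-sulfur clusters on the path to ubiquinone, had 1850.0, 1995 and 1708 in VPA, 3370.3, 3086 and 2645 in VPM and 3473, 4200.2 and 2689.6 in MC. This was a fall by 0.88 against MC (SE 0.138, adjusted p = 0.000231), again with no overlap. Ndufa9, an accessory subunit at the junction of the arms, had 2449, 2644 and 2525 in VPA, 3260.3, 3494 and 3284 in VPM and 3722, 3499 and 3468 in MC, a difference of -0.49 (SE 0.0565, adjusted p = 2.33e-05). Its VPA arrays lay below all others.

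Further iron-sulfur core subunits, Ndufs1 and Ndufs7, were lower too. Ndufs1, the large subunit of the NADH-oxidising arm, had 1617, 1809 and 1716 in VPA, against 2210.5, 2259.7 and 2329 in MC, a difference of -0.40 (SE 0.0638, adjusted p = 0.000242). Ndufs7, which holds the cluster nearest to ubiquinone, had 2057, 2289.5 and 2139 in VPA, against 2746, 2906 and 2578 in MC, a difference of -0.34 (SE 0.0621, adjusted p = 0.000624). Neither gene had overlapping groups. The nuclear core subunits measured here (Ndufs1, Ndufs3, Ndufs7, Ndufs8, Ndufv1 and Ndufv2) were grouped after their values were seen. Such a grouping cannot test whether core subunits differ from the others. They had 4 lower and 0 higher of 6, with a median of -0.32. The other 29 complex I members had 4 higher and 5 lower, with a median of -0.05. Over all tested genes 53.8% were called, 27% higher and 26.8% lower. Ndufv1 and Ndufv2, the flavin and iron-sulfur subunits that take up electrons from NADH, had 0.07 and 0.06 and were not called.

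Among the complex I members that rose, Ndufv3 had 5056, 5852 and 5279.5 in VPA, 3831, 4008 and 3793 in VPM and 3741, 3809.7 and 3567 in MC. Its difference from MC was 0.54 (SE 0.0615, adjusted p = 2.09e-05) in limma, and all VPA arrays lay above all others. Ndufb6 and Ndufa8, accessory subunits of the membrane arm, rose by 0.32 and 0.26 with adjusted p of 0.00206 and 0.00129. The X-linked Ndufa1 and Ndufb11 had 0.07 and -0.14, neither called. Ndufa4 and Ndufa4l2, a relative known as a hypoxia-induced gene, had 0.09 and -0.27, and neither was called, the interval of Ndufa4l2 running from -0.65 to 0.11. The other complex I members called were Ndufs3, Ndufb3, Ndufa2 and Ndufb7, which fell by 0.25 to 0.30, and Ndufa5, which rose by 0.18. These 5 fall outside the rule for named genes and are given for completeness.

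The assembly factors had a median absolute difference of 0.37, against 0.12 in complex I and under 0.10 in each other complex, and 7 of 8 were called, 3 higher and 4 lower. Over all genes tested the median absolute difference was 0.28 and 53.8% were called. Ndufaf8, the partner of the Ndufs7-modifying enzyme Ndufaf5, had 517, 689 and 558 in VPA, 1383, 1154 and 1022 in VPM and 1232, 1274 and 1379 in MC. Its difference from MC was -1.15 (SE 0.123, adjusted p = 1.31e-05) in limma, with no overlap between VPA and either other group. Ndufaf1, which builds the membrane arm, had 321, 338 and 319.7 in VPA, 662, 650.4 and 678 in VPM and 700.1, 722 and 669 in MC. This gene had the smallest adjusted p of all members, at 7.82e-07 for a difference of -1.10 (SE 0.0763). Every VPA array lay below every VPM and MC array. Ndufaf7, a methyltransferase acting on a core subunit, had 359.9, 461 and 383 in VPA, against 639.9, 595 and 452 in MC, and these overlapped by 1 array of each group, although limma called the difference of -0.48 (adjusted p = 0.0114). In the opposite direction, Ndufaf2 had 1017, 1092 and 972 in VPA, 684, 659.7 and 673 in VPM and 679, 761 and 763 in MC, a difference of 0.48 (SE 0.0766, adjusted p = 0.000244) with no overlap. Ndufaf4 and Ndufaf5 rose by 0.26 and 0.25, and Ndufaf3, named outside the rule, fell by 0.24.

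**Figure D1:**
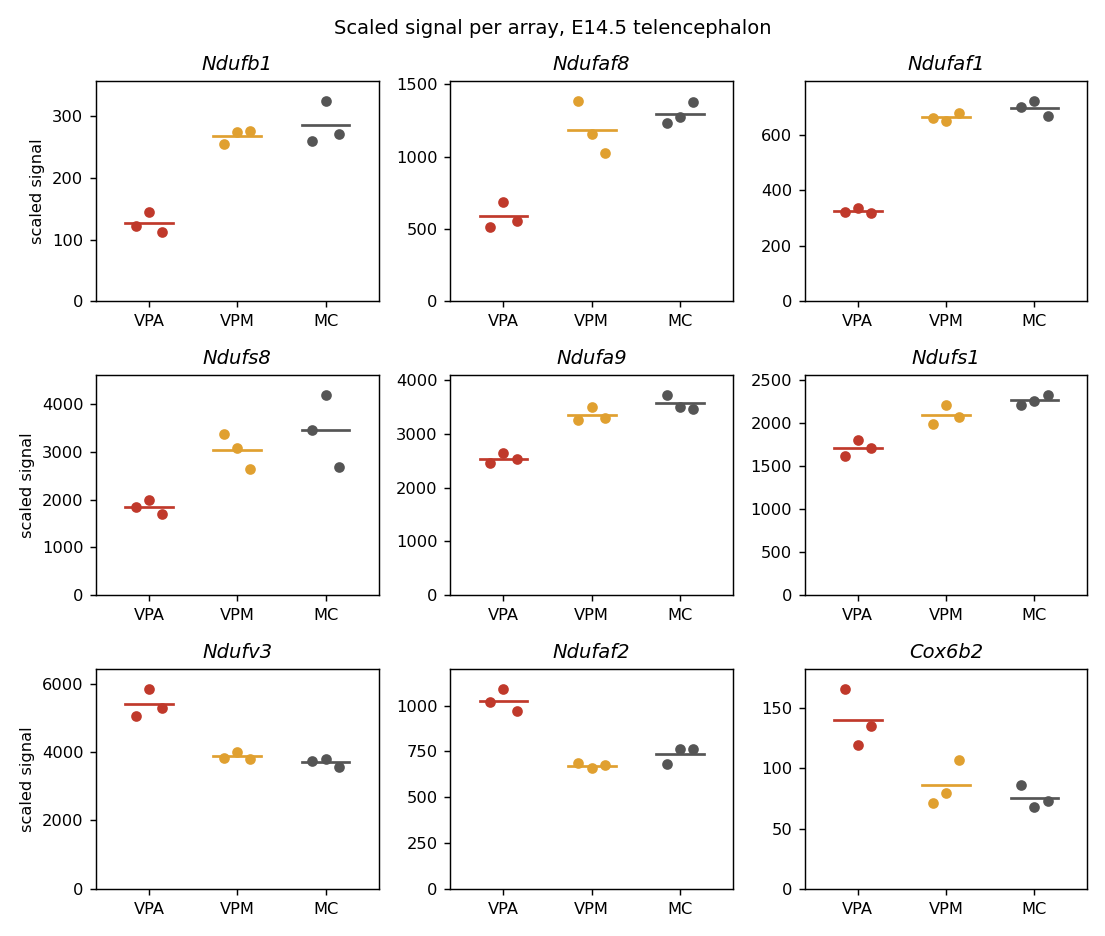
Scaled signal (linear axis from 0) of 9 members at E14.5 in the VPA, VPM and MC arrays; points are arrays and lines are means of 3. The VPA points of Ndufb1, Ndufaf8, Ndufaf1, Ndufs8, Ndufa9 and Ndufs1 lie below all VPM and MC points, and those of Ndufv3, Ndufaf2 and Cox6b2 lie above them.

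No complex II member was called at E14.5 for VPA against MC, and none had an unadjusted p under 0.05 in limma. The differences were -0.03 for Sdha, the flavin subunit, 0.12 for Sdhb, the iron-sulfur subunit, and -0.06 and 0.26 for the membrane anchors Sdhc and Sdhd. The interval of Sdha ran from -0.14 to 0.08, so a change of the size seen in Ndufs8 lay well outside it, while that of Sdhd ran from -0.00 to 0.53. In complex III, 1 of 8 members was called. This was Uqcrb, a small subunit beside the ubiquinone site, with 11581, 12141 and 10814 in VPA and 13254, 13078 and 12298 in MC, a difference of -0.16 (SE 0.0533, adjusted p = 0.0223) without overlap. The other 7 had differences between -0.08 (Uqcrc2) and 0.21 (Uqcrq) on the probe sets used. Further bright probe sets of Uqcrc2 and Uqcrh had -0.34 and 0.34 without overlap, and another of Sdha had -0.17 without overlap.

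In complex IV, 4 of 11 tested members rose and none fell, with a median of 0.08. Cox6b2 had 166, 119 and 135 in VPA, 71.2, 79.5 and 107 in VPM and 86.4, 67.7 and 72.6 in MC. Its difference from MC was 0.88, and the VPA arrays lay above all others. It passed the filter of 100 through the 3 VPA arrays and 1 VPM array, all MC arrays being below it, so that its call rests on the group where it is high. Without the filter its adjusted p was 0.0147 in limma. Its widely expressed counterpart Cox6b1 had 0.01. Cox5a, a subunit of the matrix side, had 14695, 14045 and 14357 in VPA, against 12274, 12184 and 12792 in MC, a difference of 0.21 (SE 0.0504, adjusted p = 0.00402). Cox6a1, the widely expressed isoform of its pair, had 18325, 20953 and 19307 in VPA, against 16045, 17452 and 16753 in MC, a difference of 0.22 (SE 0.0561, adjusted p = 0.00582). Both genes showed no overlap. Cox7a2l rose by 0.18 (adjusted p = 0.039 in limma) with overlapping groups. Cox4i1, Cox7a2, Cox8a and Cox8c had 0.06, 0.01, 0.13 and 0.08, none of them called. Cox6a2, the heart and muscle isoform, did not pass the filter and had 71.4, 95.8 and 60.1 in VPA, against 50.9, 54.2 and 23.5 in MC, a difference of 0.74 without overlap and with 1 MC array under the floor.

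Complex V had 1 member higher and 2 lower of 17, and genes of its c subunit were called in both directions. The genes Atp5g1, Atp5g2 and Atp5g3 encode one identical mature protein, the c subunit of the membrane rotor, with different import sequences. Atp5g1 had 4841, 4989 and 4977 in VPA, 4059, 4770.1 and 4506 in VPM and 4049.8, 4273 and 4144 in MC, and rose by 0.25 against MC (SE 0.0613, adjusted p = 0.00483). Atp5g2 had 6603, 7569 and 6860.4 in VPA, 7383, 7631 and 7366 in VPM and 7977, 8200.1 and 7821 in MC, and its difference was -0.19 (SE 0.0562, adjusted p = 0.0124). Atp5g3 had 0.08 and was not called. The catalytic subunits Atp5a1 and Atp5b had 0.02 and -0.03, with intervals of -0.08 to 0.12 and -0.15 to 0.08. Atp5k, subunit e of the membrane part and outside the naming rule, had -0.14 (adjusted p = 0.0441).

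**Figure D2:**
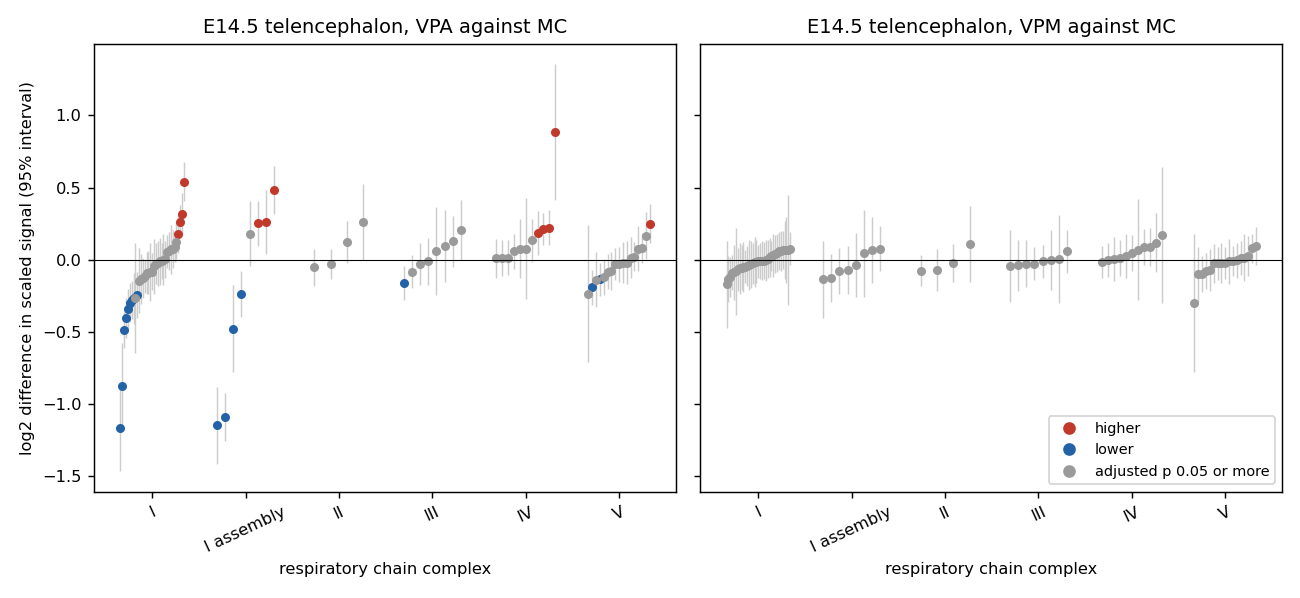
Log2 difference of each tested member at E14.5 with its 95% interval, grouped by complex, for VPA against MC and VPM against MC; red marks higher and blue lower at an adjusted p under 0.05 in limma, grey marks not called. The called members of VPA, 12 higher and 16 lower, include 20 of the 43 tested members of complex I and its assembly factors and 8 of the 40 others, and no member is coloured for VPM.

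Of the 43 tested members of complex I and its assembly factors, 20 were called, or 46.5%, and of the 40 members of the other complexes 8, or 20%. Both shares were below the 53.8% of all genes and the 52.1% of genes with a mean signal of at least 2000. For 12 called members, further probe sets had a mean signal of at least 100 in VPA or MC. All 19 of these differed in the same direction as the one used, although some were many times dimmer. Members that were not called are outside this count. Bright further probe sets of Ndufb5, Atp5d and Atp5h had -0.35, 0.30 and 0.19 without overlap, beside -0.01, 0.17 and -0.03 on the one used. Those of Ndufc1, Ndufa3, Ndufa7 and Cox6b1 included -0.21, 0.16, -0.15 and 0.12 without overlap, beside -0.03, 0.12, -0.13 and 0.01. A dimmer probe set of Ndufs4 went the other way, at 0.27 beside -0.12, both without overlap. Others not called, such as Ndufb9 and Ndufv2, had further probe sets with overlapping groups. Under leaving out 1 array at a time, 22 to 29 members were called. The calls of 13 members were made under every alternative tried, and those of the other 15 were lost in at least 1 of them, including Ndufaf7, Cox5a, Cox6a1, Atp5g1, Atp5g2 and Uqcrb. The red blood cell markers summed to 6527 to 10008 in VPA and 10942 to 12933 in MC arrays, and the progenitor markers to 27627 to 28603 in VPA and 30671 to 31342 in MC. The neuron markers summed to 36807 to 37707 in VPA, 44311 to 47884 in VPM and 40181 to 40859 in MC. The telencephalic identity genes summed to 6882 to 7611 in VPA and 8960 to 9827 in MC, and 2 of 3 VPA arrays and 1 of 3 MC arrays had the female pattern. Whether these differences had a part in the members' values was not tested, except that with sex as a covariate 25 members were called. In bulk tissue, fewer cells of a type and less RNA per cell cannot be told apart.

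VPM at the same dose and time called none of the 83 members against MC in limma, and none had an unadjusted p under 0.05, while 11.6% of all genes were called. The differences ran from -0.30 (Atp5md, a small complex V subunit) to 0.17 (Cox6b2). The smallest p was that of Ndufs1, 0.0881 before and 0.258 after adjustment. A p that misses the threshold does not show that VPM acts like the vehicle, so the intervals matter here, and 81 of 83 lay within 0.5 of 0 on the log2 scale with a median half-width of 0.145. For Ndufb1 the VPM difference from MC was -0.08 with an interval of -0.38 to 0.22. For Ndufaf1 it was -0.07, with an interval of -0.24 to 0.10, and for Ndufaf8 -0.14, with -0.40 to 0.13. All 3 intervals exclude the VPA differences of these genes from MC. For Cox6b2 the interval was -0.30 to 0.64. Groups without overlap were found for 8 members, against 32.8% of genes.

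Set directly against VPM, VPA gave 8 higher and 11 lower members of 83, in a comparison that called 54.5% of all genes, 27.5% higher and 27% lower. Groups did not overlap for 27 members, against 60.7% of genes. With quantile normalization the split was 15 higher and 11 lower. The acid and the amide differed in response by -1.09 for Ndufb1 (interval -1.39 to -0.78, adjusted p = 4.45e-05 in limma), by -1.02 for Ndufaf1 (interval -1.19 to -0.86, adjusted p = 9.75e-07) and by -1.01 for Ndufaf8 (interval -1.28 to -0.75, adjusted p = 3.09e-05). Ndufs8 differed by -0.71, Ndufaf7 by -0.52, Ndufs7 by -0.40 and Ndufa9 by -0.40. In the other direction, Cox6b2, with the limit of the filter given above, was higher in VPA by 0.71, Ndufaf2 by 0.61 (adjusted p = 4.13e-05) and Ndufv3 by 0.47 (adjusted p = 5.17e-05). Sdhb was higher in VPA by 0.20 (adjusted p = 0.0258). By complex the calls were 3 higher and 8 lower in complex I, 2 and 3 among assembly factors, 1 and 0 in complex II, 2 and 0 in complex IV, and none in complexes III and V. The comparisons of VPA with VPM and with MC share the VPA arrays. The red blood cell markers were lowest in VPM, at 2530 to 3178, the neuron markers were highest there, as given above, and choroid plexus markers ran from 231 to 20076 across the VPM arrays. Leaving out VPM replicate 3 gave 18 calls.

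The genes that serve the chain were listed beside the members. Of assembly factors outside the symbol rule, 1 rose and 15 fell of 35 for VPA against MC at E14.5, with a median of -0.11. They included Sco2, which delivers copper to complex IV, at -1.28 (SE 0.17, adjusted p = 6.57e-05 in limma), Coa7, a complex IV assembly factor, at -1.26 (adjusted p = 1.56e-05) and Cox10, which makes its heme, at -0.76 (adjusted p = 8.72e-06). Mitochondrial ribosomal protein genes had 11 higher and 35 lower of 76 and a median of -0.17. Coq7, an enzyme of ubiquinone synthesis, had -1.30 (adjusted p = 1.15e-07) within a list of electron carriers that had 6 higher and 3 lower of 21. Tricarboxylic acid cycle genes had 6 higher and 2 lower of 15, with Idh3a, a subunit of isocitrate dehydrogenase, at 0.70 (adjusted p = 7.82e-07). Glycolysis and hypoxia genes had 11 higher and 2 lower of 21, with the glucose transporter gene Slc2a3 at 1.45 (adjusted p = 9.73e-08). Among regulators of mitochondrial gene expression, 4 rose and 6 fell of 16, with Gabpb1 and Gabpa, subunits of the ETS factor GABP, at -0.59 and -0.39, Nrf1 at -0.22 and Tfam at -0.24, and the coactivator gene Ppargc1b at 1.73. Over all tested genes 27% rose and 26.8% fell. For VPM against MC the same lists had 0 higher and 1 lower assembly factors, 0 and 2 ribosomal genes, 0 and 1 cycle genes, and 4 and 7 glycolysis and hypoxia genes.

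At E18.5, days after the last dose, none of the members was called for either drug in either region. In forebrain, VPA against MC called none of 84 members in limma, with 2.16% of all genes called. At an unadjusted p under 0.05 there were 3 members, 2 higher and 1 lower. That is 3.57% of the members, against 16.1% of all genes. Differences ran from -0.55 for Cox6b2 (adjusted p = 0.238) to 0.25 for Ndufb1, and 80 of 84 intervals lay within 0.5 of 0. Ndufaf1 had 789, 743 and 720.2 in VPA, 795, 733 and 773 in VPM and 765, 757 and 852 in MC forebrain. Its VPA difference from MC was -0.08, with an interval of -0.22 to 0.07. Ndufb1 had 283, 346 and 284 in VPA, 345, 305 and 342 in VPM and 251, 287 and 230.2 in MC, the VPA interval being -0.01 to 0.50. The groups of Ndufaf1 and Ndufb1 overlapped between VPA and MC. Ndufs8 had 4879, 4578 and 5107 in VPA, against 4697, 4728 and 5160.2 in MC, with an interval of -0.26 to 0.25. Cox6b2, high in VPA at E14.5, had 57.8, 85.8 and 87.3 in VPA, 134, 101 and 92.7 in VPM and 102, 108 and 123 in MC at E18.5.

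Whether the VPA effect differed between the ages was tested as a difference of differences in the fit over all 59 arrays. The effect in E18.5 forebrain was higher than that in E14.5 telencephalon for 11 members and lower for 7 of 89, in a test that called 29.4% of all genes, 14.2% higher and 15.2% lower. It differed by 1.41 for Ndufb1 (adjusted p = 1.53e-07 in limma), by 1.08 for Ndufaf8 (adjusted p = 3.08e-09) and by 1.02 for Ndufaf1 (adjusted p = 1.02e-13). Ndufs8 and Ndufa9 differed by 0.88 and 0.53. The largest negative differences were those of Cox6b2, -1.43 (adjusted p = 0.00077), and Ndufv3, -0.49 (adjusted p = 1.35e-05). As was likely for genes picked by large differences, these 7 all had an effect nearer 0 in E18.5 forebrain than in E14.5 telencephalon. For Cox6b2, Ndufb1 and Ndufa9 it had the opposite sign there, at -0.55, 0.25 and 0.04. The E14.5 and E18.5 samples differ in the tissue taken as well as in age.

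**Figure D3:**
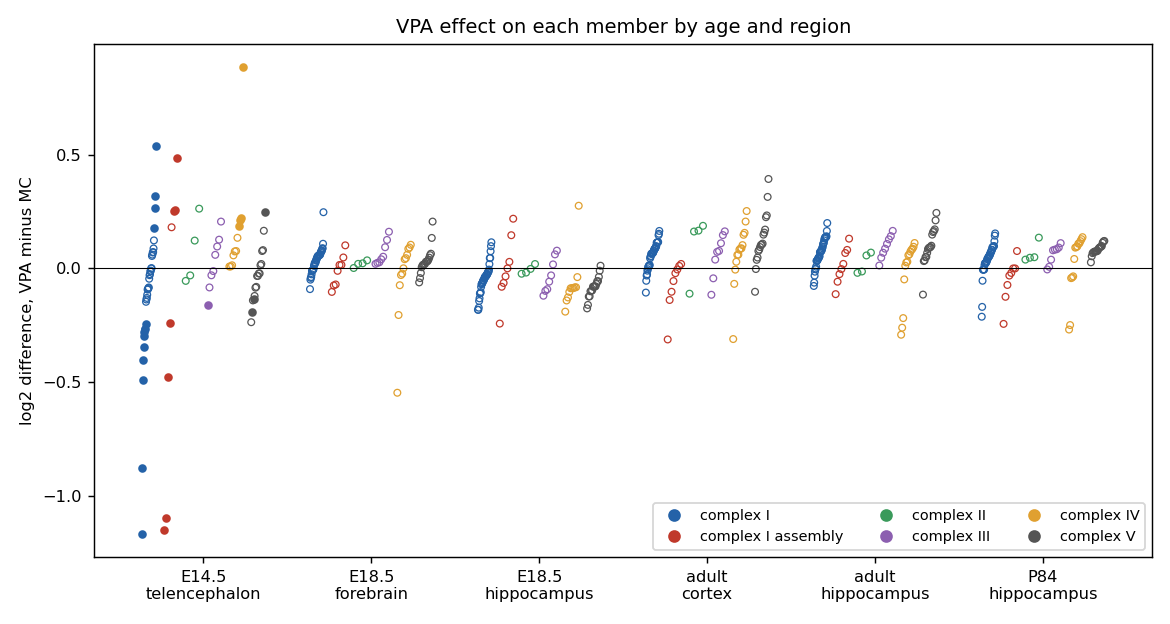
Log2 difference of VPA from MC of each tested member in the 6 age and region sets, in columns by complex; each point is a member, and filled points have an adjusted p under 0.05 in limma. All filled points are at E14.5, and the members called there ran from -1.17 to 0.88 at E14.5, from -0.55 (Cox6b2) to 0.25 in E18.5 forebrain, and from -0.31 to 0.31 over the other 4 sets.

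In E18.5 hippocampus, VPA against MC called none of 83 members in limma, as of all genes (0%). At an unadjusted p under 0.05 there were 9 members, all of them lower. That is 10.8% of the members, against 13.1% of all genes and 17.3% of genes with a mean signal of at least 2000. Differences ran from -0.24 (Ndufaf2) to 0.28 (Cox6b2), and 68 of 83 were negative. Their median was -0.06, against -0.01 over all tested genes and -0.03 over those bright genes. The smallest p was that of Ndufa6, an accessory subunit of complex I, at -0.18 (adjusted p = 0.213). Ndufaf2, which rose at E14.5, had 745, 753 and 657 in VPA, against 941, 820.3 and 792 in MC hippocampus, a difference of -0.24 without overlap (adjusted p = 0.329). Groups did not overlap for 23 members, against 17.8% of genes. VPA against VPM in hippocampus again called no member (0% of genes), with 76 of 83 differences negative. At an unadjusted p under 0.05, 8 members were lower and 0 higher. That is 9.64% of the members, against 14.9% of all genes and 22.0% of those bright genes. The median was -0.07 over the members and -0.03 over those bright genes. There the smallest p was that of Cox5b, at -0.16 (adjusted p = 0.23). VPM against MC called no member in hippocampus, with 0.00867% of genes called and 2 members at an unadjusted p under 0.05, 1 in each direction. In forebrain VPM against MC called no member (0% of genes), with 4 members higher at an unadjusted p under 0.05, Ndufb1 among them at 0.37 (adjusted p = 0.861). These 4 are 4.76% of the members, against 5.44% of all genes. VPA against VPM in forebrain called no member, with 0.53% of genes called and 1 member, Cox6b2, at an unadjusted p under 0.05, at -0.51. These 3 comparisons of the acid with the amide, including that at E14.5, were all at 300 mg/kg. At E18.5, 81 of 83 hippocampal and 80 of 84 forebrain intervals of the difference between them lay within 0.5 of 0. Red blood cell markers summed to 345 to 438 in VPA and 516 to 728 in MC hippocampus, and to 296 to 359 in VPA and 537 to 658 in MC forebrain, and choroid plexus markers ran from 1603 to 28988 across MC hippocampus arrays. Their part in these differences was not tested. A female pattern was seen in 2 of 3 VPA and 0 of 3 MC hippocampus arrays, and in 1 of 3 VPA and 2 of 3 MC forebrain arrays. No fit with sex as a covariate is given here for E18.5.

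In adult offspring no member was called for prenatal VPA or for the running wheel. VPA against MC in hippocampus called none of 87 members in limma (0% of genes), with 15 at an unadjusted p under 0.05, all higher. That is 17.2% of the members, against 11% of all genes and 17.1% of bright genes, those with a mean signal of at least 2000. The smallest p was that of Atp5c1, the gamma subunit of the ATP synthase stalk, with 8633, 8622 and 8592 in VPA and 7841, 6955 and 7562 in MC hippocampus, a difference of 0.21 without overlap (adjusted p = 0.252). Of the 87 differences, 70 were positive, with a median of 0.07, against -0.01 over all tested genes and 0.06 over bright genes. The members' median was thus close to that of other bright genes. In cortex, VPA against MC called no member (0.00735% of genes), with 13 higher and 2 lower at an unadjusted p under 0.05, which is 17.2% against 17.4% of bright genes, and a median of 0.08. Atp5d, the delta subunit, had the smallest p there, 0.00491 for an adjusted p of 0.31. Non-overlapping groups were seen for 24 members in hippocampus, against 16.9% of genes, and for 19 in cortex, against 15.7%.

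For the wheel in cortex of vehicle offspring, MC+RW against MC called no member in limma (0.0147% of genes), while 22 of 87 had an unadjusted p under 0.05, all of them higher. That is 25.3%, against 1835 of all 13606 genes and 22.3% of bright genes. They were 11 members of complex I, 4 of complex III, 1 of complex IV and 6 of complex V. Atp5mpl, a small subunit of complex V, had 4817, 4891 and 4504 in MC+RW and 4155, 4253 and 4013 in MC cortex, a difference of 0.19 without overlap (adjusted p = 0.172). The median over members was 0.09, equal to that of bright genes at 0.09 and above that of all genes at -0.02. Leaving out MC+RW replicate 3 gave 3 calls, Atp5mpl, Cox5a and Uqcrh. After prenatal VPA, VPA+RW against VPA in cortex called no member (0% of genes), with 7 higher at an unadjusted p under 0.05. That is 8.05% of the members, against 6.31% of all genes. The smallest p was that of Atp5e at 0.21 (adjusted p = 0.463). In hippocampus MC+RW against MC called none (0% of genes), with 7 higher at an unadjusted p under 0.05. There VPA+RW against VPA called none (0% of genes), with 2 at that limit. These are 8.05% and 2.3% of the members, against 8.72% and 8.56% of all genes. Between runners, VPA+RW against MC+RW called none in hippocampus (0% of genes) or in cortex (0.022% of genes), with 1 and 3 members at an unadjusted p under 0.05. The difference between the wheel effects after VPA and after MC called no member in hippocampus (0.0482% of genes) or cortex (0.0275%). At an unadjusted p under 0.05 it had 1 and 7 members, or 1.12% and 7.87%, against 6.18% and 8.04% of all genes.

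At P84, with 4 arrays a group, VPA against MC in hippocampus called none of 86 members in limma (0% of genes). At an unadjusted p under 0.05, 6 were higher and 2 lower. That is 9.3% of the members, against 4.95% of all genes and 5.18% of bright genes. The lowest p belonged to Ndufs8, one of the genes that fell at E14.5, with 5605, 5869, 5579.6 and 4741 in VPA and 6238, 6232, 6328 and 6376 in MC. The groups did not overlap, at a difference of -0.21 (SE 0.0607, adjusted p = 0.902), and 1 VPA array was lower than its other 3. In adult hippocampus at 12 to 13 weeks, the core subunits of complex I, Ndufs8 among them, ran from 0.05 to 0.20. The P84 effect minus the adult one was -0.26 for Ndufs8, with an interval of -0.59 to 0.07. Of 86 members, 5 had groups without overlap, against 2.98% of genes. Of the intervals, 83 of 86 lay within 0.5 of 0. The VPA effect was also tested for a difference between P84 and adult hippocampus, between adult hippocampus and cortex, and between E18.5 hippocampus and forebrain. These 3 tests called no member in limma, where 0.0826%, 0.0207% and 0.103% of all genes were called. At an unadjusted p under 0.05 they had 1, 7 and 10 members, or 1.12%, 7.87% and 11.2%. Over all genes the shares at that same limit were 8.82%, 8.54% and 7.46%.

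The vehicle arrays gave the members' course over development. Between E14.5 telencephalon and E18.5 forebrain, 17 members were higher and 25 lower at E18.5 of 89 tested, with 54.3% of all genes called, 30.2% higher and 24% lower. Complex IV isoforms of restricted expression were among the higher, with Cox8c at 0.55, and Cox6a2 at 0.81, where 1 E14.5 array stood at the floor. With quantile normalization Cox6a2 had 0.57 and was not called. Ndufs8 was higher at E18.5 by 0.52 (adjusted p = 0.000397 in limma). The largest falls included Atp5g2 at -0.48, Atp5a1 at -0.43, Ndufaf8 at -0.43 and Ndufb7 at -0.40. With quantile normalization 16 were higher and 18 lower, and 12 and 18 were called in the same direction under both scalings. On the values as deposited, without scaling, 56 were higher and none lower, beside a median shift of 0.34 over all genes.

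From E18.5 to the adult, most members were called, as were most genes, and the direction of many depended on the scaling. Adult cortex against E18.5 forebrain had 15 higher and 46 lower of 89 with trimmed mean scaling (81.1% of genes called, 45.7% higher and 35.5% lower), but 32 higher and 26 lower with quantile normalization. Adult hippocampus against E18.5 hippocampus had 16 higher and 46 lower (81.6% of genes, 45.5% higher and 36.1% lower), and 36 higher and 27 lower with quantile normalization. P84 against E18.5 hippocampus had 22 higher and 45 lower (82.9% of genes, 45.9% higher and 37% lower), and 37 higher and 29 lower with quantile normalization. Under trimmed mean scaling the median over all genes was 0.17, 0.15 and 0.16 in these comparisons, against -0.19, -0.16 and -0.14 over the members and -0.26, -0.25 and -0.26 over bright genes. With quantile normalization the all-gene medians were within 0.02 of 0. Called in the same direction under both scalings were 12 higher and 25 lower members in cortex, 16 higher and 26 lower in adult hippocampus and 19 higher and 28 lower at P84, and the statements that follow name such members unless said otherwise. The astrocyte markers summed to 22747 to 26431 in adult cortex, against 4769 to 5864 in E18.5 forebrain, and the oligodendrocyte markers to 20063 to 23710, against 1143 to 1400. The progenitor markers summed to 4223 to 4695 in adult cortex, against 14339 to 15535 in E18.5 forebrain. The part of cell composition in these differences was not tested.

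**Figure D4:**
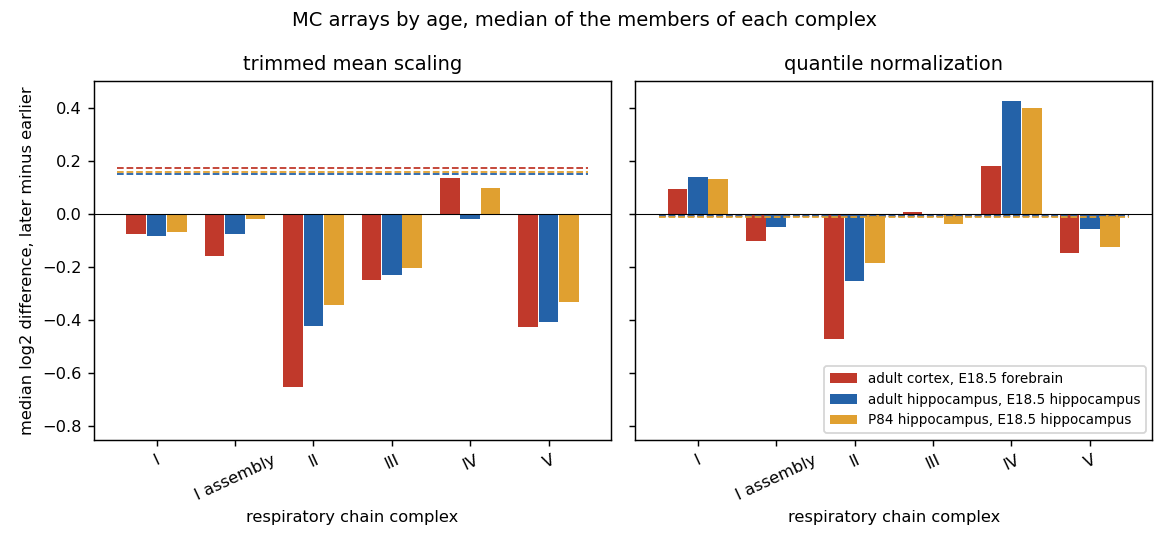
Median log2 difference of each complex's tested members between MC groups, for adult cortex against E18.5 forebrain and for adult and P84 hippocampus against E18.5 hippocampus, under trimmed mean scaling (left) and quantile normalization (right); dashed lines are the medians over all genes. Complexes II and V lie below the all-gene median under both scalings, and the complex IV bars lie above it only under quantile normalization.

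Complex II was divided within itself. Sdha rose by 0.68 in adult cortex, 0.78 in adult hippocampus and 0.73 at P84, and by 0.90, 0.98 and 0.87 with quantile normalization. Its signal was 4968, 4946 and 5596 in adult cortex, against 3249.7, 3082 and 3361 in E18.5 forebrain, and 5051, 6044 and 5632 in adult hippocampus, against 3509, 3177 and 3042 in E18.5 hippocampus. No adult array overlapped an E18.5 array. Sdhc went the other way, with 2105, 2127 and 1908 in adult cortex, against 3791, 3463 and 3645 in E18.5 forebrain, and differences of -0.83, -0.91 and -0.56. With quantile normalization these were -0.71, -0.78 and -0.43. Sdhb had 4513, 4395 and 4604 in adult cortex, against 6179.8, 6049 and 6527 in E18.5 forebrain, and differences of -0.47, -0.35 and -0.27, the last not called with quantile normalization. Sdhd had differences of -0.85, -0.49 and -0.41 on its brightest probe set, but the mean over its probe sets in cortex was 0.02, so its direction rests on 1 probe set. The 4 products form one enzyme.

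Promoters are shown for Sdha, which rose, for Sdhb, which fell, and for Sdhd, whose direction differed between probe sets, because they encode subunits of one enzyme whose genes did not move together. As before, each is the 250 bases before the start on the gene's strand (RefSeq, GRCm38.p6), and capitals mark the NRF1 pattern in Sdha and Sdhd and the GC box, read on the other strand as CCGCCC, in Sdhb.
Sdha, chr13:74350241-74350490, minus strand: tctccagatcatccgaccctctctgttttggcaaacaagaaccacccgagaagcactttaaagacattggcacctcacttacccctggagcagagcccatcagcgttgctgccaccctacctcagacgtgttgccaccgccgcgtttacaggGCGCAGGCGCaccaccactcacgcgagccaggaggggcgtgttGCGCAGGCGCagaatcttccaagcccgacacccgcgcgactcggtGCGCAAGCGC
Sdhb, chr4:140961021-140961270, plus strand: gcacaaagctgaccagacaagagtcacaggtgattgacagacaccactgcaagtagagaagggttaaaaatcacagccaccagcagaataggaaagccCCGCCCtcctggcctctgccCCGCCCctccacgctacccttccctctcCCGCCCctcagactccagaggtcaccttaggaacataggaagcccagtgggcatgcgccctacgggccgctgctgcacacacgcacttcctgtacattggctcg
Sdhd, chr9:50603850-50604099, minus strand: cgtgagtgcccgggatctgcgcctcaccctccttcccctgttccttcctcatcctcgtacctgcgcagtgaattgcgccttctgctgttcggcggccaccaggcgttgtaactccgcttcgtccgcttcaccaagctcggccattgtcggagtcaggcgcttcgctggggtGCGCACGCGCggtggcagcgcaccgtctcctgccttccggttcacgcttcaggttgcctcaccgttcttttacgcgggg
Sdha held 3 matches to the NRF1 pattern, the last ending at base -1 counted from the start, and Sdhd held 1. Sdhb held 3 GC boxes and no match to the NRF1 pattern.

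Complex V had no member higher under trimmed mean scaling, and 14 of 17 were lower in adult cortex, 16 in adult hippocampus and 14 at P84. Over all genes 35.5%, 36.1% and 37% were lower, and bright genes had a negative median under this scaling, as given above. With quantile normalization the counts were 5 higher and 8 lower, 3 and 8, and 6 and 8. Members lower under both scalings included Atp5e, the epsilon subunit of the rotor stalk, with 2293 to 2342 in adult cortex and 3643 to 4487 in E18.5 forebrain, a difference of -0.81. Its differences in adult and P84 hippocampus were -1.05 and -0.84. Atp5o, which links the catalytic head to the side stalk, had -0.77, -0.70 and -0.57. Of the c subunit genes, Atp5g1 had 2606, 2359 and 2472 in adult cortex, against 4016, 3544 and 4516 in E18.5 forebrain, a difference of -0.69. Atp5g2 had 7821 to 8200.1 in E14.5 telencephalon, 5564 to 5959 in E18.5 forebrain and 3325 to 3628 in adult cortex, so no 2 of these groups overlapped. Its difference between adult cortex and E18.5 forebrain was -0.73, but the mean over its probe sets, of which the others lay near the floor, was 0.12. The catalytic Atp5b had -0.19 and -0.18 under trimmed mean scaling, and was not among the members called in the same direction under both scalings.

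In complex IV, Cox6a2 and Cox8c, isoforms of restricted expression, were higher in adults under both scalings. Cox6a2 had 408, 437 and 381 in adult cortex, against 82, 58.5 and 98.6 in E18.5 forebrain, and 344, 297 and 379.8 in adult hippocampus, against 59.2, 62.9 and 89.5 in E18.5 hippocampus. The differences were 2.39, 2.29 and 2.31, or 1.76, 1.65 and 1.70 with quantile normalization, and no adult array overlapped an embryonic array. Its counterpart Cox6a1 had 12277, 10561 and 11996 in adult cortex, against 13378, 13777 and 16053 in E18.5 forebrain, with differences of -0.31, -0.42 and -0.27 under trimmed mean scaling but 0.16, 0.13 and 0.16 with quantile normalization, so no direction can be given for it. Cox8c, known as a testis isoform in humans, had 1333, 1314 and 1056 in adult cortex, against 406, 466 and 452 in E18.5 forebrain, a difference of 1.48, with 1.67 and 1.76 in hippocampus. Cox8a, the widely expressed form, rose by 0.29, 0.26 and 0.23. Cox6b1 fell in all 3 comparisons, at -0.65, -0.70 and -0.54, and Cox7a2l at -0.51, -0.48 and -0.40. Cox4i1 was not called, at -0.01, -0.04 and 0.06. Cox4i2, known as the oxygen-sensitive isoform, had 0.92, 1.28 and 1.20, and 0.01, 0.45 and 0.38 with quantile normalization. Cox7a1 had 0.70 in cortex, but -0.44 with quantile normalization, so no direction can be given for it.

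**Figure D5:**
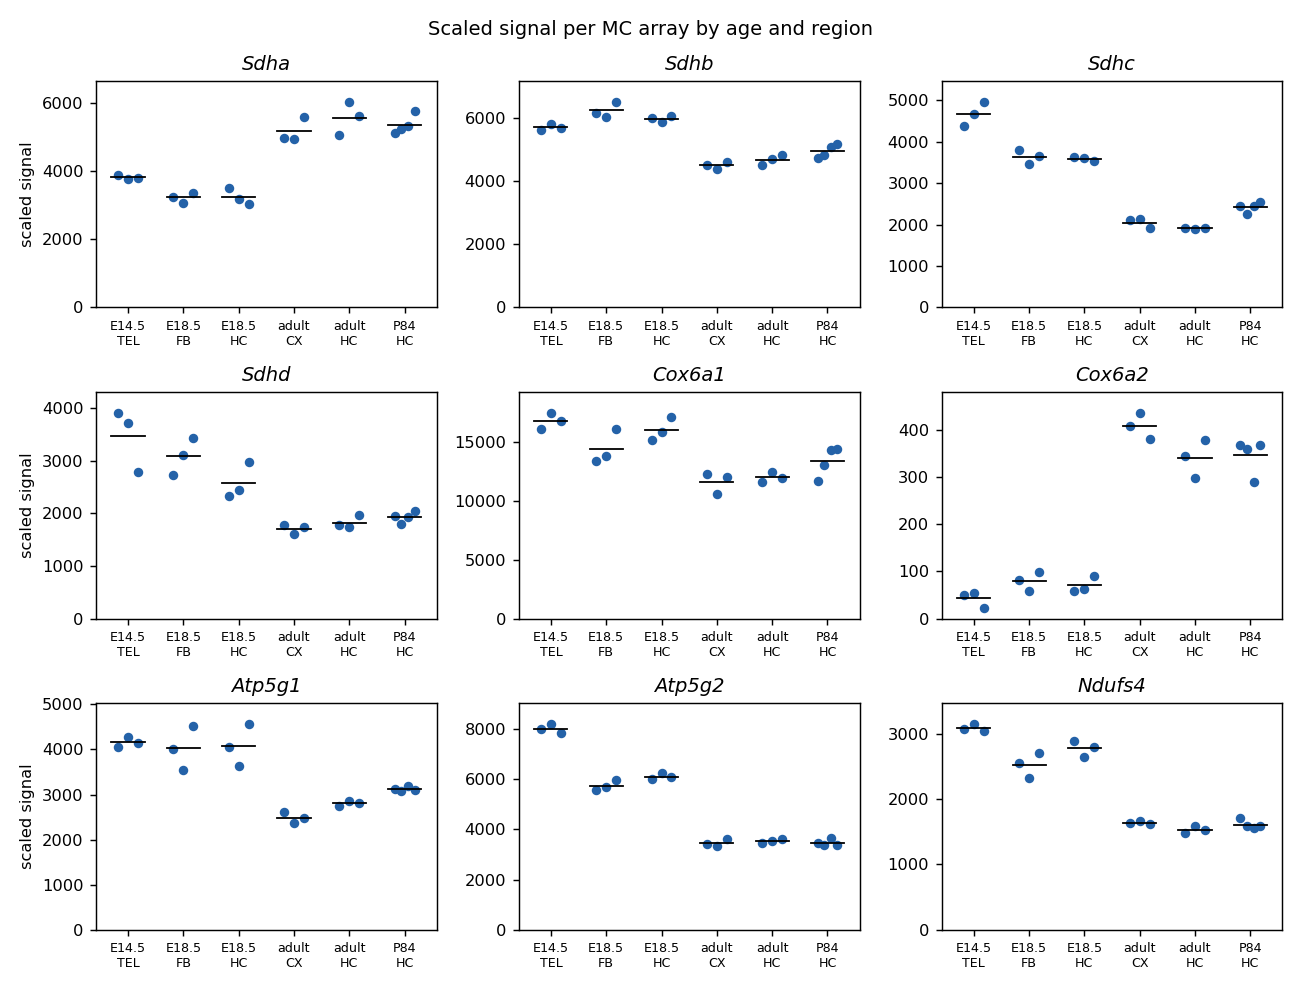
Scaled signal (linear axis from 0) of 9 members in the MC arrays by age and region (TEL telencephalon, FB forebrain, HC hippocampus, CX cortex); points are arrays and lines are means. Sdha and Cox6a2 are higher in the 3 adult groups than at E18.5, while Sdhb, Sdhc, Sdhd, Atp5g1, Atp5g2 and Ndufs4 are lower.

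Complex I members split in both directions under both scalings. In adult cortex 6 were higher and 14 lower with trimmed mean scaling, and 15 and 6 with quantile normalization. Ndufb7, an accessory subunit of the membrane arm, had 2362 to 2519.8 in adult cortex, against 4244 to 4883 in E18.5 forebrain, with differences of -0.86, -0.97 and -0.91. Ndufs4, an accessory subunit whose loss causes Leigh-like disease in mice and people, had 1614 to 1661 in adult cortex, against 2316 to 2699 in E18.5 forebrain, a difference of -0.62. The mean over its probe sets was 0.17 in cortex, so its direction depended on the probe set. Ndufb1 rose by 0.67, 0.55 and 0.68. The core subunit Ndufs1 had 0.11 in cortex, where it was not called, and 0.27 and 0.41 in hippocampus. Ndufa4l2 had -0.71 and -0.69 in adult and P84 hippocampus. The assembly factors had none higher and 4 lower in cortex under each of the scalings. Complex III had 1 higher and 6 lower in cortex with trimmed mean scaling, and 3 and 1 with quantile normalization, and its small subunit Uqcr10 rose by 0.24, 0.47 and 0.46. Of the other lists, the mitochondrial ribosome had 9 higher and 47 lower of 76 in adult cortex against E18.5 forebrain with trimmed mean scaling. The tricarboxylic acid cycle had 10 and 5 of 15, and glycolysis and hypoxia 14 and 2 of 21. Over all genes 45.7% were higher and 35.5% lower, and bright genes had a negative median under this scaling, as given above. Counts of these lists with quantile normalization are not given here, so their directions may depend on the scaling.

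Between regions, hippocampus was the higher in nearly all calls. At E18.5, hippocampus against forebrain had 22 members higher and 2 lower (22.6% of genes, 10.9% higher and 11.7% lower), or 17 and 3 with quantile normalization. Of these, 11 belonged to complex I, 3 to its assembly factors, 1 each of the higher to complexes III and IV, and 6 to complex V. Ndufb1 was higher by 0.46, Ndufa4l2 by 0.48 and Ndufaf2 by 0.38, while Cox7c, on a dim probe set, and Uqcrc1 were lower at -1.22 and -0.15. Leaving out 1 array at a time gave 14 to 19 calls. The 2 regions were unequal in sex, with a female pattern in 0 of 3 MC hippocampus and 2 of 3 MC forebrain arrays at E18.5. In adults, hippocampus against cortex had 10 members higher and none lower (18.6% of genes, 8.8% higher and 9.76% lower), 4 of complex I, 3 of complex III and 3 of complex V. Ndufa10 was higher by 0.28 (adjusted p = 0.00245 in limma), Uqcr10 by 0.30 and Uqcr11 by 0.20. Leaving out adult hippocampus MC replicate 3 gave 1 call, Ndufa10, and leaving out adult cortex MC replicate 1 or 2 gave 4 calls each, Ndufa10 among them. On the values as deposited, without scaling, no member was called in adults and 0 were higher and 4 lower at E18.5.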

How the data were processed

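The submitters deposited 1 linear intensity per probe set and array, made with GCOS, per the submitters' processing notes. No further scaling by the authors is given in the sources used here. The 45101 probe sets were named through the platform annotation (34958 with 1 symbol, 932 with several and 9211 with none), and 34754 were updated through Entrez numbers. Arrays were grouped by their labels.

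Each array's intensity was scaled to a 2% trimmed mean of 500, floored at 32 and taken to log2. Genes needed a scaled signal of at least 100 in 3 arrays (4 at P84). Drug and wheel comparisons were fitted with limma 3.58.1 (R 4.3.3) within each age and tissue, with moderation that follows signal strength (eBayes trend) and p-values adjusted by Benjamini-Hochberg over all genes tested. Comparisons between ages or regions, and differences of effects, came from a fit of all 59 arrays, in which 89 members were tested. Intervals are 95% intervals. The fit was tested on simulated data. Figures and tables used Python 3.11.15 with pandas 2.3.3, numpy 2.4.6 and matplotlib 3.10.9.

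Named genes were, per comparison, up to 8 called members with the largest rise and up to 8 with the largest fall, up to 2 per complex with the smallest adjusted p, the isoform families and the X-linked members. Members and lists were chosen with earlier results of these data known. The alternatives included quantile normalization, no scaling of the deposited values, other filters, a pseudocount of 32 in place of the floor, no trend, all probe sets of a gene, only the groups compared, a replicate block and leaving out each array. The number of arrays, 3 or 4 a group, limits the precision. Of the probe sets used, 46 are unique by their suffix and 26, with the letter a, may bind several transcripts of a gene. Another 13, with the letter s, and 5, with x, may bind related transcripts of other genes.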

Additional observations from a re-analysis of the deposited data

Results flagged for a closer look

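Over the 42 sets of 4 values examined, each 1 member's signals in 1 P84 group, 1 value stood apart. Cox6a2 had a signal of 289.62 in 1 P84 MC hippocampus array, with 368, 360 and 367 in the other 3. Chance alone marks about 1 in 20 such sets.

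The effect of VPA against MC differed between E18.5 forebrain and E14.5 telencephalon for 18 members by limma's test of the difference. The difference, given as the forebrain effect minus the telencephalon effect on the log2 scale, was positive for the following members. It was 1.415 for Ndufb1, 1.078 for Ndufaf8, 1.02 for Ndufaf1 and 0.877 for Ndufs8. For Ndufa9 it was 0.5319, for Ndufaf7 0.4687, for Ndufs1 0.438 and for Ndufs7 0.4321. Smaller positive values were 0.3725 for Ndufs3, 0.3398 for Ndufaf3 and 0.3374 for Ndufb3. The difference was negative for Cox6b2 at -1.43, on signals near the filter of 100, Ndufv3 at -0.4934 and Ndufaf2 at -0.4694. It was also negative for Cox5a at -0.2845, Ndufa8 at -0.2531, Ndufaf5 at -0.2363 and Cox7a2l at -0.2077.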

How the results depend on the processing

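Of 2499 values of named members compared with an alternative, 2473 kept their direction and 26 reversed, and 371 of 389 counts stayed within 1.5 times. Reversals on the values as deposited, E18.5 forebrain against E14.5 telencephalon, were Ndufaf8 0.005063, Ndufb7 0.02934, Sdhc 0.07043, Cox6c 0.0766, Atp5g3 0.11, Ndufs4 0.1381, Sdha 0.1879, Uqcrc2 0.1902, Uqcrh 0.1687 and Cox7a2l 0.1461. The same setting gave, against E18.5 hippocampus, Ndufaf3 0.1425 and Uqcrc1 0.008617 in adults and Ndufaf6 0.05323, Uqcrq 0.07526 and Uqcrh 0.03166 at P84, and Ndufaf1 -0.05097 for E18.5 hippocampus against forebrain. This setting keeps the arrays' unequal trimmed means. With the mean over probe sets, cortex reversed for Sdhd 0.02157, Atp5g2 0.1179 and Ndufs4 0.1724, adult hippocampus for Atp5g2 0.09463, P84 for Atp5g2 0.08688, Atp5c1 0.699 and Uqcrq 0.6442, and E18.5 forebrain for Ndufs4 0.04499 and Sdha 0.02454. Among these values quantile normalization reversed Cox7a1 in cortex, -0.4379. The 26 do not hold every reversal, since Cox6a1, given above, also changed sign with quantile normalization. Against E18.5, 4 members in adult cortex, 6 in adult hippocampus and 5 at P84 were called in opposite directions under trimmed mean scaling and quantile normalization. Causes were not tested.

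Counts that moved on the values as deposited were 14 for VPA against MC and 12 against VPM at E14.5, 6 for the difference of the VPA effects, 1 for P84 (Ndufs8), 35 for adult cortex and 40 for adult hippocampus against E18.5, 4 for E18.5 hippocampus against forebrain (Cox7c, Sdhd, Uqcrb and Uqcrc1) and 0 for adult hippocampus against cortex. Leaving out 1 array gave 0 to 3 for MC+RW against MC in cortex, 14 to 19 for E18.5 hippocampus against forebrain, 1 to 8 for adult hippocampus against cortex, and 16 to 28 for VPA against VPM.

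With the replicate block, VPA against VPM at E14.5 gave 29 calls and VPA against MC 32, in place of 19 and 28. Same-numbered arrays correlated at -0.283 to 0.383 in their deviations, and in 0 of 24 comparisons was every pair over 0.1. This limit cannot settle whether same-numbered arrays share an animal, litter or batch, which the labels do not give. For E18.5 hippocampus against forebrain in MC, each same-numbered pair was the best match, at 0.167, 0.051 and 0.065. Sex as a covariate, chosen after seeing the data, gave 25 and 18 calls at E14.5. With signals near the floor, as for Cox6b2 and Cox6a2, small differences are not detectable.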
